A study of Mus musculus with 6 samples.

Results

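The mitochondrial ribosomal protein genes were the genes whose symbol began with Mrpl or Mrps and a number, each read from 1 probe set with a single gene symbol. They came to 77 of the 19938 genes tested, 48 Mrpl genes, named for the large subunit, and 29 Mrps genes, named for the small subunit. For 69 of them the array carried 1 such probe set, and for the other 8 the probe set with the highest mean over the 6 arrays was used. The samples were B lineage cells with green fluorescence, sorted from RAG2-GFP/129Sve reporter mice of 17 to 25 days, in which fluorescence marks cells that express, or recently expressed, the recombinase gene Rag2. Cells came from small intestinal lamina propria, the tissue layer under the gut epithelium, or from bone marrow, with 3 pools per tissue, 8 to 12 mice pooled per experiment and 1 array per pool. Both groups carried the same reporter, and the labels name no treatment. The study compared the expression profiles of the tissues, and here the question is how the genes of the mitochondrial ribosome compared, large against small subunit, in each pool.

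Mitochondria keep a small genome of their own, and its few protein-coding genes, all for subunits of the respiratory chain and ATP synthase, are translated by a separate ribosome inside the organelle. Its RNAs come from the mitochondrial genome, but every one of its proteins is encoded in the nucleus, made in the cytosol and imported. Some of these proteins have counterparts in bacterial ribosomes, and others are found only in mitochondria. Dividing B cell precursors need new mitochondria, and so new mitochondrial ribosomes, at each division.

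The promoter sequences of the members with the smallest p-values between the tissues are shown first. Transcription factors that act on many nuclear genes for mitochondria bind short motifs near the start of transcription. Promoter windows of 300 bases, from 250 before to 50 after the annotated start, were found by symbol for 68 of the 77 members in RefSeq (build GRCm38.p6). Each stretch below ends at the base before the start and reads 5′ to 3′ on the strand of the gene. It holds at most 200 bases, and fewer where a base nearer the start is covered by another annotated gene. Capitals mark a match, on either strand, to the NRF1 motif, the ETS motif CCGGAAG (the core bound by the factor GABPA), the YY1 motif or the TATA box TATAAA. Mrpl9 lies at chr3:94443136-94443335 (plus strand), Mrpl51 at chr6:125192101-125192199 (plus), Mrps15 at chr4:126046728-126046927 (plus), Mrps12 at chr7:28741822-28741956 (minus) and Mrps25 at chr6:92184024-92184223 (minus).
Mrpl9: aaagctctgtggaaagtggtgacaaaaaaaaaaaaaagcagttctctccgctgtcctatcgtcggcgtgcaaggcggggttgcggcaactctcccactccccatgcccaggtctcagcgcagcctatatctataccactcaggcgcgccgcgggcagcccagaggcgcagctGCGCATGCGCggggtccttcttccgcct
Mrpl51: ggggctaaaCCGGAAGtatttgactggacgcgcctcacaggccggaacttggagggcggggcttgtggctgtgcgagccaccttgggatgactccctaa
Mrps15: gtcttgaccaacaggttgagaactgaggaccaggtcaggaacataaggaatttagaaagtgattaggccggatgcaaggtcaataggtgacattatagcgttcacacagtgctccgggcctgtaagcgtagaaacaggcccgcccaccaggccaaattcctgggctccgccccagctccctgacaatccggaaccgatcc
Mrps12: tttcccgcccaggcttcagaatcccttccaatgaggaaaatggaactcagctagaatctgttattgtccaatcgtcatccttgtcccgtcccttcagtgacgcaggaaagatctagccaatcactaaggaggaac
Mrps25: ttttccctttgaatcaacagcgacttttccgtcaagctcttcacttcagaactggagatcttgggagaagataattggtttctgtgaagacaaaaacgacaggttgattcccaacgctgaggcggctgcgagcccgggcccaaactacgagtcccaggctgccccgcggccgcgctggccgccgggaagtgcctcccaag
Mrpl9 held an NRF1 match and Mrpl51 an ETS match. Mrps12 had an ETS match elsewhere in its window, outside the stretch shown, and Mrps15 and Mrps25 held no match to any of the motifs. A match is a description of the sequence, not a site shown to be bound.

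Over all members with a window, matches to 3 of these motifs took a larger share than among all 15614 tested genes with one, a description with no test. The ETS motif was in the windows of 25 of 68 members (36.8%) against 13.6% of all genes, and the NRF1 motif in 13 (19.1%) against 7.85%. The YY1 motif was in 5 members (7.35%) against 1.13%. The TATA box ran the other way, in 5 members (7.35%) against 13.6%. In all, 37 members (54.4%) held at least one of the NRF1, ETS and YY1 motifs, against 20.5% of all genes, and in no member window did matches to different motifs overlap. Tissue differences of members with and without a match were also set side by side, with no test. Their median on the log2 scale was -0.50 with the NRF1 motif and -0.32 without, -0.32 with the ETS motif and -0.36 without, and -0.32 with the YY1 motif and -0.36 without.

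**Figure D1:**
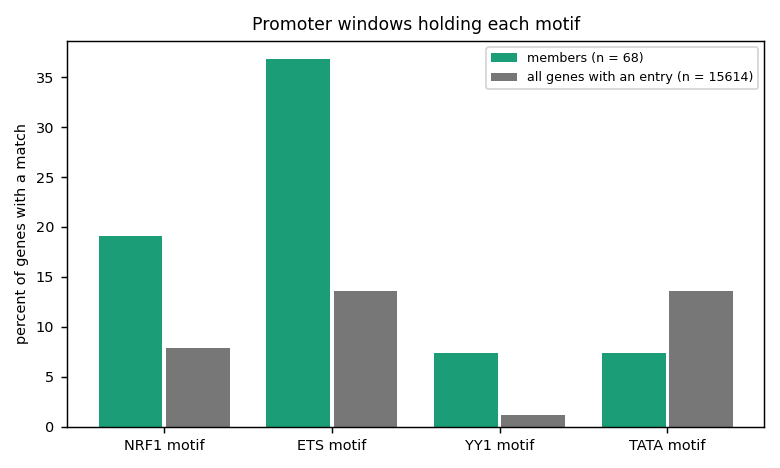
Bars give the percent of genes whose promoter window (300 bases around the annotated start) holds a match to each motif on either strand, for the members (green) and for all tested genes with a window (grey). The members are above all genes for the NRF1, ETS and YY1 motifs, at 19.1%, 36.8% and 7.35%, and below them for the TATA box, at 7.35%.

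Before the values, the pools need a word, since they were not alike. Across the 77 members, lamina propria pool 3 correlated with the bone marrow pools at r = 0.77 to 0.86, and the marrow pools with each other at 0.80 to 0.92. Lamina propria pools 1 and 2 were less alike, at r = 0.49 between them and 0.42 to 0.53 against the remaining arrays. These values describe arrays over genes that share the same arrays, and genes are not replicates. Over all probe sets, medians of the log2 RMA values (normalised microarray signals) lay between 5.34 and 5.48, but the interquartile range was 2.00 and 1.94 in lamina propria pools 1 and 2 against 2.41 to 2.47 in the other arrays. The number of arrays limits the precision. Results are therefore also given for pool 3 alone and for pools 1 and 2 without it.

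Of 9 B lineage markers 8 were measured, and their mean log2 level ran from 9.14 to 9.54 in the lamina propria and from 9.44 to 10.17 in the marrow. Of these, 7 had a negative difference, with a median of -0.37, where that of the members was -0.36. The list was uneven. Igll1, Vpreb1 and Ebf1 differed by -0.00, -0.06 and -0.22, and Cd79a by 0.04. Cd79b and Pax5 differed by -0.52 and -0.62, both with overlap, and Rag1 by -1.05 (limma adjusted p = 0.307). Negative differences were common at high mean values. They were found in 75.3% of all genes with a mean value from 7 to 8 (median -0.58) and 77.4% from 8 to 9 (median -0.62). Most of the B lineage markers had a mean value above 9, for which no share was taken. Rag2 itself read 5.67, 5.75 and 6.06 in the lamina propria and 7.76, 8.49 and 8.28 in the marrow, a difference of -2.35 (limma adjusted p = 0.155). The lists for other cells differed in direction. For intestinal epithelium (7 of 7 measured, 7 with a positive difference) the mean level was 5.32 to 5.73 against 5.01 to 5.05, for T cells (4 of 6 measured, 4 positive) 5.14 to 5.51 against 4.59 to 5.07, and for plasma cells (4 of 4 measured, 3 positive) 5.22 to 5.47 against 4.51 to 4.99. The median differences of these 3 lists were 0.46, 0.35 and 0.46. Positive differences were common at such mean levels, in 67.6% of all genes, 89.0% of genes with a mean value from 4 to 5 (median 0.34) and 76.8% from 5 to 6 (median 0.29). Some listed genes lay higher, where fewer genes were positive, 48.1% from 6 to 7 and 24.7% from 7 to 8. Among these, the epithelial genes Krt8 and Cdx1 had tissue means of 7.61 against 7.16 and 7.25 against 6.49. In the plasma cell list Jchain differed by 1.41 without overlap (limma adjusted p = 0.268), Prdm1 by 0.62, Xbp1 by 0.29 and Sdc1 by -0.03. Myeloid markers (8 of 8 measured, 4 positive, median -0.14) were at 5.42 to 5.57 against 5.41 to 6.47. For plasmacytoid dendritic cells (3 of 3 measured, 2 positive) the range was 6.5 to 7.10 against 6.79 to 6.89, and of 4 erythroid markers only Alas2 was measured, at 5.21 to 5.77 against 5.31 to 5.42. The scale has no true zero, so no marker is at 0. The part of other cells in the results below was not tested, and in sorted bulk samples fewer cells of a type and less RNA per cell cannot be told apart.

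Most mitochondrial ribosomal protein genes lay lower in the lamina propria, in both subunits. Of the 77 members, 54 had a negative difference (70.1%), against 32.4% of all genes tested. This share depended on the mean value of a gene over the 6 arrays. From 5 to 6, 75% of members and 23.2% of all genes were negative. From 6 to 7 the shares were 75% and 51.9%, and from 7 to 8 they were 55.6% and 75.3%. The median difference, lamina propria minus bone marrow, was -0.33 for Mrpl genes and -0.41 for Mrps genes on the log2 scale, while the median over all genes was 0.22. Each lamina propria pool lay below each marrow pool for 12 members, against 7.27% of all genes, and above each for 3 members, against 14.8% of all genes. These are 15.6% and 3.90% of the members. Here too the shares varied with the mean value. From 6 to 7, 17.5% of members and 12.8% of all genes were lower without overlap, and 0% and 8.71% higher. From 7 to 8, 16.7% and 16% were lower, and 11.1% and 3.73% higher. No single member passed limma's test after Benjamini-Hochberg adjustment over all genes, the smallest adjusted p being 0.24, and of all genes 0% passed in either direction. At an unadjusted p under 0.05, limma gave 9 members lower and 3 higher, 15.6% of the members together, against 8.15% lower and 5.53% higher among all genes, 13.7% together.

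The count of calls turned on pool 3 of the lamina propria. When that pool was left out, limma called 17 members lower and 5 higher at an adjusted p under 0.05, where 12.1% and 24.1% of all genes were called lower and higher. The 17 were 8 of 48 Mrpl genes and 9 of 29 Mrps genes. In the same 5 arrays, 27 members (35.1%) lay below every marrow pool, against 18.7% of all genes, and 10 (13.0%) above, against 51.2% of all genes. In pool 3 alone, 27 members (35.1%) lay below every marrow pool, against 26.7% of all genes, and 13 (16.9%) above, against 24.8%, while 37 lay within the marrow range.

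**Figure D2:**
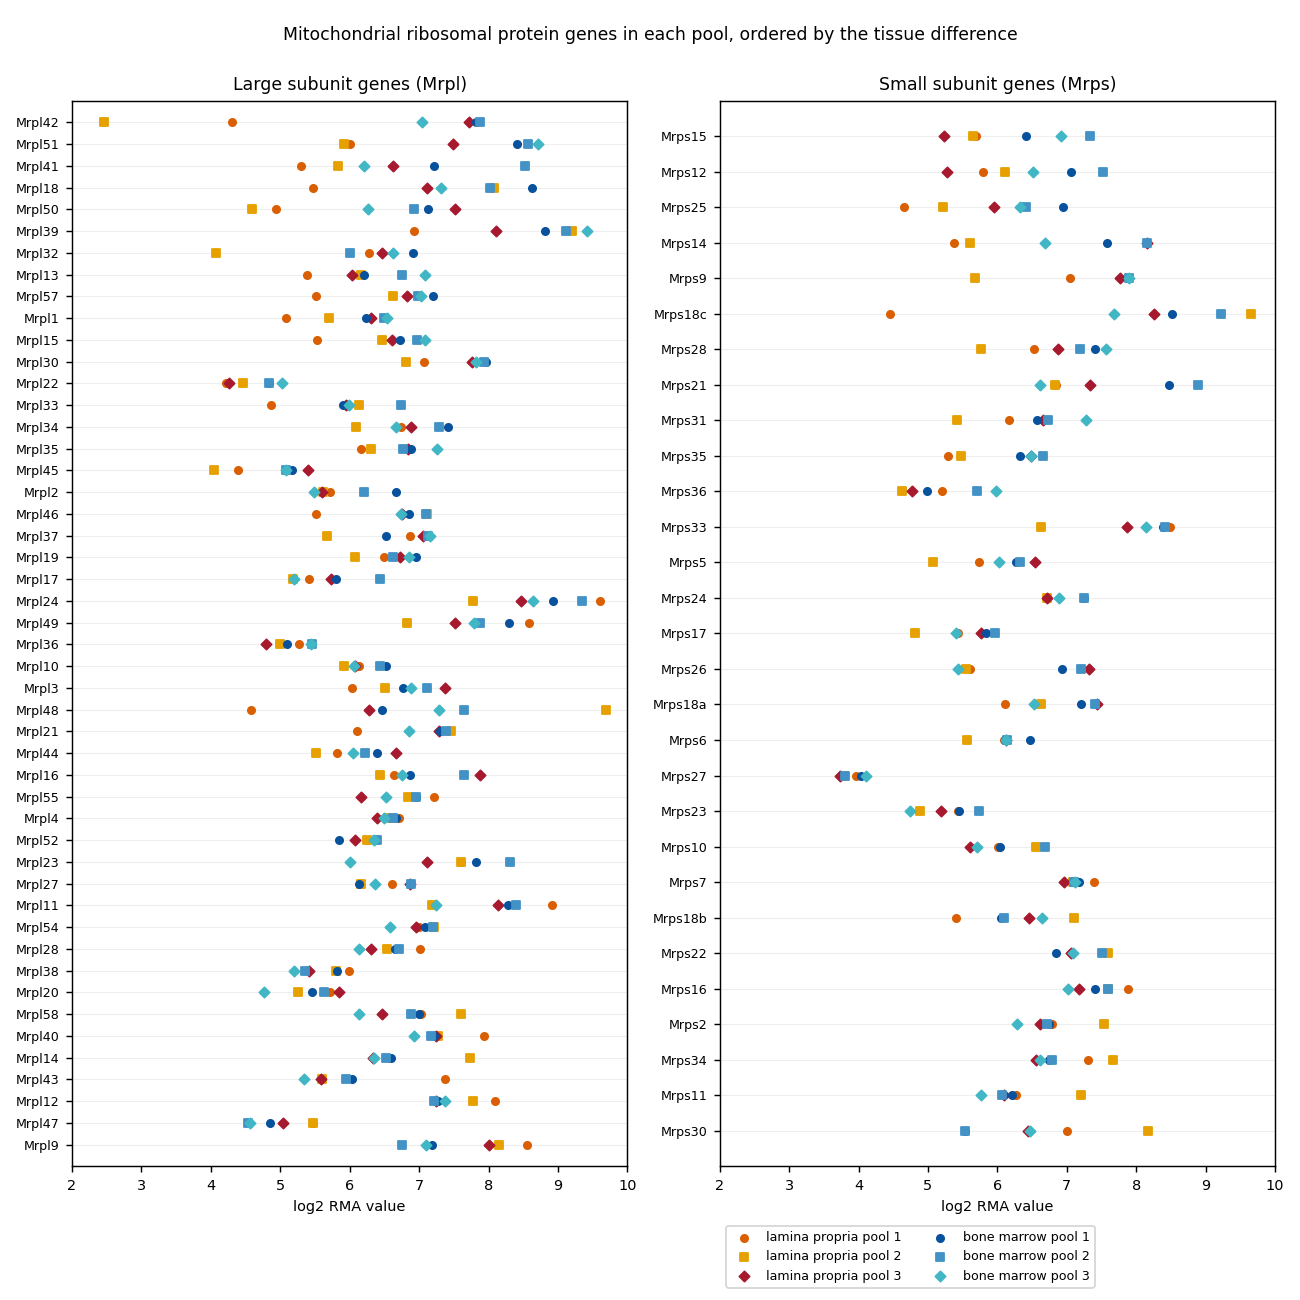
Log2 RMA values of each member in the 3 lamina propria pools (orange, yellow and red) and the 3 bone marrow pools (blues), with Mrpl genes on the left and Mrps genes on the right, ordered by the tissue difference with the most negative at the top. The lamina propria points are wider apart than the marrow points for most members, and those of pools 1 and 2 make up most of the low values, as for Mrpl42.

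Pool by pool, the members' median difference from the marrow mean was negative in every lamina propria pool. For Mrpl genes it was -0.35, -0.42 and -0.15 in pools 1, 2 and 3, and for Mrps genes -0.42, -0.69 and -0.15. The median over all genes was 0.31 in pools 1 and 2 and -0.01 in pool 3. Setting each marrow pool against the mean of the other 2 gave 0.16, 0.16 and -0.25 for Mrpl genes and 0.08, 0.20 and -0.26 for Mrps genes. The value of lamina propria pool 3 was thus inside the spread of the marrow pools, and those of pools 1 and 2 were outside it. All 3 lamina propria pools lay below the marrow mean for 29 members, 37.7% against 15.7% of all genes, and above it for 6 members, 7.79% against 32.3%.

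The medians of large and small subunit genes did not differ beyond the spread between pools. The Mrpl median lay 0.07 above the Mrps median in the tissue difference. In single lamina propria pools the gap was 0.07, 0.27 and 0.00, and in the marrow pools 0.08, -0.04 and 0.02, so pool 2 gave the widest gap. Of the Mrpl genes 33 of 48 and of the Mrps genes 21 of 29 had a negative difference. Without overlap, 6 Mrpl genes (12.5%) and 6 Mrps genes (20.7%) were lower, against 7.27% of all genes. Higher without overlap were 3 Mrpl genes (6.25%) and no Mrps gene (0%), against 14.8% of all genes. Counting Mrps30 and Mrps18a with the large subunit, where structures of the mammalian ribosome place their proteins, and leaving out Mrps36, whose protein belongs to a dehydrogenase complex rather than the ribosome, gave -0.32 and -0.41.

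**Figure D3:**
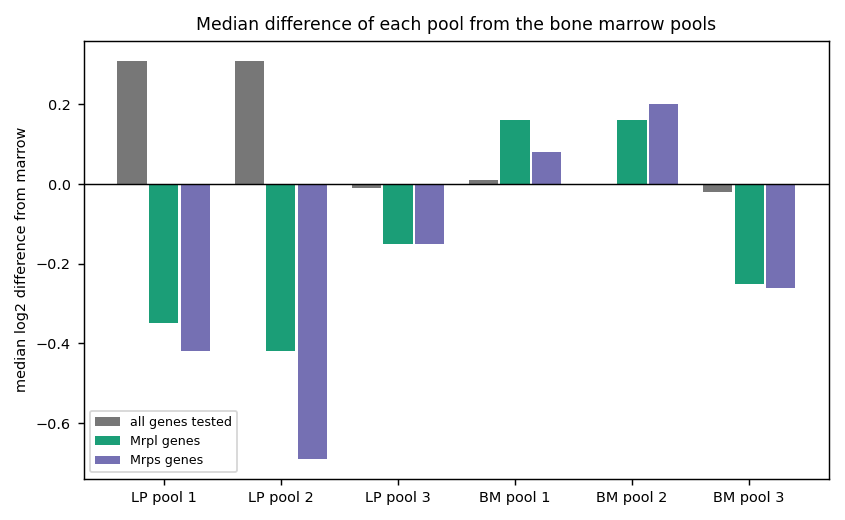
Bars give the median log2 difference of all genes (grey), Mrpl genes (green) and Mrps genes (purple) in each pool, set against the mean of the 3 marrow pools for a lamina propria (LP) pool and against the mean of the other 2 marrow pools for a bone marrow (BM) pool. Both subunits lie below 0 in every LP pool and in BM pool 3, and all genes lie above 0 in LP pools 1 and 2.

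Because the difference of any gene depended on its mean value on these arrays, the members were also set beside all genes of like value. Between 6 and 7, where 40 members lay, the members' median difference was -0.37 and that of all 4249 genes -0.03. Medians there were -0.55, -0.45 and -0.14 in pools 1, 2 and 3 for members, and -0.06, -0.09 and -0.02 for all genes. From 5 to 6 the 12 members had a median of -0.39 and all 6070 genes one of 0.29. Between 7 and 8 the order turned round, with -0.17 for 18 members and -0.58 for all 1821 genes. Medians in pools 1, 2 and 3 were -0.02, 0.13 and -0.15 for these members, and -0.86, -0.96 and -0.00 for all genes of that interval. From 5 to 7 the members' median was thus below that of genes of like value in each pool, and from 7 to 8 it was above it in pools 1 and 2 and below it in pool 3. From 8 to 9 there were 3 members and from 4 to 5 also 3, too few to describe by a median, and Mrps27 lay lowest, at a mean of 3.91.

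**Figure D4:**
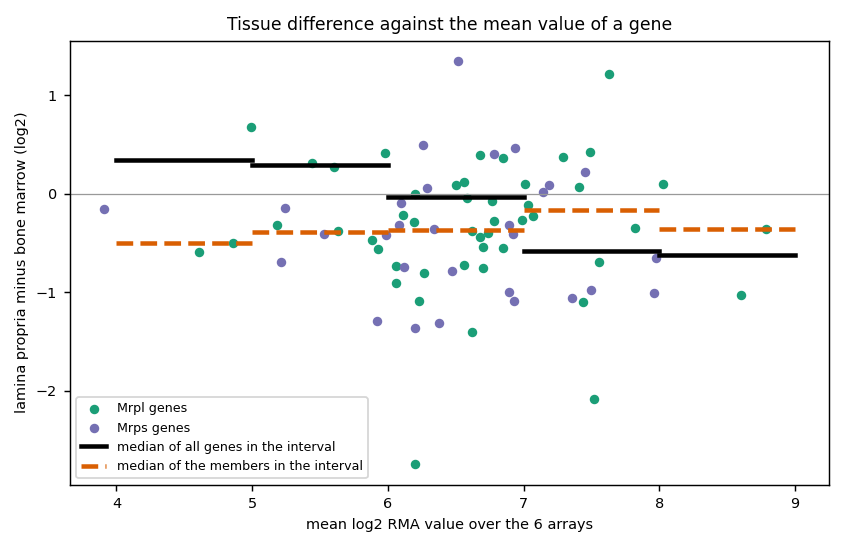
Each point is a member, with its mean log2 RMA value over the 6 arrays on the horizontal axis and its difference, lamina propria minus bone marrow, on the vertical axis (Mrpl green, Mrps purple). Black bars are medians of all genes and orange dashes medians of the members in unit-wide intervals; the black bars fall from 0.29 between 5 and 6 to -0.58 between 7 and 8, and the orange dashes run from -0.39 to -0.17.

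Among large subunit genes, Mrpl51, a protein found only in mitochondrial ribosomes, had the smallest p of those that were lower. Its log2 RMA values were 6.0, 5.92 and 7.49 in lamina propria pools 1, 2 and 3 and 8.41, 8.57 and 8.71 in the marrow pools. All lamina propria pools were below the marrow, and pool 3 lay between the groups. The difference was -2.09 (95% interval -3.08 to -1.11), or 4.27-fold, with a limma adjusted p of 0.246. A further probe set for Mrpl51 read 5.32, 5.48 and 5.86 against 6.54, 6.47 and 5.65, a difference of -0.67 in the same direction with overlap.

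Mrpl42, another protein found only in mitochondria, had the lowest difference of all members, at -2.75 (95% interval -5.48 to -0.03, limma adjusted p = 0.356). It rested on pools 1 and 2. The values were 4.30, 2.46 and 7.72 in the lamina propria and 7.82, 7.88 and 7.04 in the marrow, so pool 3 was inside the marrow range and the groups overlapped. In pool 3 alone the difference was 0.14. Mrpl50 was likewise low in pools 1 and 2, with 4.94, 4.60 and 7.52 against 7.13, 6.92 and 6.27, but its pool 3 lay above every marrow pool.

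Mrpl41 and Mrpl18 followed, with differences of -1.40 and -1.10. Mrpl41 read 5.3, 5.83 and 6.62 against 7.21, 8.53 and 6.21, and its other probe set gave 6.45, 6.42 and 6.25 against 6.12, 6.76 and 6.06, a difference of 0.06. The probe sets thus differed in sign, and a direction for Mrpl41 cannot be given. Mrpl18, the counterpart of a bacterial protein of the central protuberance, read 5.47, 8.08 and 7.12 against 8.62, 8.02 and 7.31, with only pools 1 and 3 below the marrow.

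Other Mrpl genes without overlap were lower by less, and were picked for this pattern after their values were seen. Mrpl13, Mrpl15, Mrpl30 and Mrpl57 differed by -0.81, -0.72, -0.69 and -0.75, with limma adjusted p = 0.356 each. In Mrpl30 the marrow pools stood close together, at 7.96, 7.93 and 7.82, above lamina propria values of 7.07, 6.81 and 7.76. Mrpl22, which lines the tunnel through which the new protein leaves, was the most even of them. Its lamina propria pools read 4.22, 4.47 and 4.26 and its marrow pools 4.84, 4.84 and 5.03, a difference of -0.59 (95% interval -1.04 to -0.13, limma adjusted p = 0.356). After quantile normalization Mrpl22 and Mrpl51 were still without overlap, and Mrpl13, Mrpl15, Mrpl30 and Mrpl57 overlapped.

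Mrpl9 was among the 23 members with a positive difference. This counterpart of the bacterial ribosomal protein of the same number had the smallest p of all members, and it was higher in the lamina propria. Values were 8.55, 8.15 and 8.00 in the lamina propria and 7.18, 6.76 and 7.10 in the marrow, with no overlap, and pool 3, the lowest of the lamina propria pools, was also above every marrow pool. Mean values were 8.24 ± 0.28 and 7.01 ± 0.22 (SD, n = 3 each). The difference was 1.22 (95% interval 0.67 to 1.77), or 2.33-fold, with a limma adjusted p of 0.24.

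Mrpl47 and Mrpl40 were the other members above the marrow in every pool. Mrpl47, at the exit of the tunnel, read 5.47, 5.47 and 5.04 against 4.85, 4.53 and 4.57, a difference of 0.68 (limma adjusted p = 0.356). The gene table ties that probe set to 1 accession and to no RefSeq messenger RNA. The probe set tied to the RefSeq transcript read 4.06, 4.51 and 4.02 against 5.34, 4.34 and 5.14, a difference of -0.74, so the direction for Mrpl47 depends on the probe set. Mrpl40, of the central protuberance, read 7.93, 7.27 and 7.24 against 7.21, 7.17 and 6.93, a difference of 0.37 (limma adjusted p = 0.397). After centring each array on its median, Mrpl40 overlapped and Mrpl9 and Mrpl47 did not.

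The remaining high Mrpl genes were high in only some pools. Mrpl12, a protein of the stalk that recruits translation factors, read 8.09, 7.77 and 7.25 against 7.27, 7.21 and 7.37, a difference of 0.42. Mrpl43 differed by 0.41, with pool 1 at 7.37 and pools 2 and 3 at 5.60 and 5.59, against 6.03, 5.95 and 5.34. Pools 1 and 2 carried the first and pool 1 the second.

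Among small subunit genes, Mrps15 and Mrps12 were lower in every lamina propria pool, with pool 3 the lowest. Mrps15, which has a bacterial counterpart, read 5.69, 5.65 and 5.23 against 6.41, 7.33 and 6.91, a difference of -1.36 (95% interval -2.03 to -0.69, limma adjusted p = 0.267), or 2.56-fold. Mrps12, the counterpart of the bacterial protein beside the decoding site where streptomycin acts, read 5.79, 6.11 and 5.27 against 7.06, 7.52 and 6.51. Its difference was -1.31 (95% interval -2.09 to -0.52, limma adjusted p = 0.309), or 2.47-fold. Among the 12 members below the marrow in every pool, these were the 2 in which pool 3 was lowest of the lamina propria pools.

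Mrps25, Mrps28 and Mrps9 were also lower without overlap. Mrps25, found only in mitochondrial ribosomes, read 4.66, 5.22 and 5.95 against 6.95, 6.41 and 6.33, a difference of -1.29 (95% interval -2.12 to -0.45, limma adjusted p = 0.341). Mrps28 read 6.52, 5.76 and 6.87 against 7.40, 7.19 and 7.57, a difference of -1.0 (95% interval -1.73 to -0.27, limma adjusted p = 0.356). In Mrps9, of the subunit's head, the marrow pools agreed closely, at 7.88, 7.90 and 7.90, and the lamina propria pools spread over 7.05, 5.68 and 7.77. Its pool 3 was just below the marrow, and the difference of -1.06 came from pools 1 and 2. Mrps24 was lower by less, at 6.71, 6.72 and 6.71 against 7.25, 7.25 and 6.89, a difference of -0.41, and it overlapped after quantile normalization.

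Mrps14, also in the head, differed by -1.09 with overlap. Its values of 5.38 and 5.61 in pools 1 and 2 lay below the marrow pools, at 7.58, 8.15 and 6.69, and pool 3 read 8.15. In pool 3 alone the difference was 0.68, so the direction turned with the pools.

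Mrps30 had the highest difference of all members. Its protein was first assigned to the small subunit and sits in the large one. Values were 7.0, 8.17 and 6.44 in the lamina propria and 5.53, 5.54 and 6.47 in the marrow, a difference of 1.35 (95% interval 0.24 to 2.47, limma adjusted p = 0.356), or 2.56-fold. Pool 3 and marrow pool 3 read nearly alike, and so the groups overlapped. Mrps11, Mrps34 and Mrps2 came next, with differences of 0.50, 0.46 and 0.40, each with overlap. In Mrps11 pool 2 stood high, at 7.20 beside 6.27 and 6.09, and in Mrps34 pools 1 and 2, at 7.31 and 7.66 beside 6.55 in pool 3.

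Mrps18a, Mrps18b and Mrps18c are 3 relatives of a single bacterial protein, the first placed in the large subunit and the others in the small one. Their differences were -0.32, 0.06 and -1.01, all with overlap. Mrps18c read 4.46, 9.65 and 8.26 against 8.51, 9.22 and 7.68, so pool 1 alone was low and pool 2 was the highest of all. Without lamina propria pool 1 the difference was 0.49. For Mrps18b the sign changed under several settings, and for Mrps18a it was 0.39 in pool 3 alone. Mrps36 differed by -0.69 (5.20, 4.63 and 4.77 against 4.98, 5.70 and 5.98), with a further probe set at -0.74.

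Spread among the lamina propria pools was wide for a few members. The SD within the lamina propria exceeded that within the marrow for 57 of 77 members (74.0%), fewer in share than over all genes (81.8%). The median SDs were 0.57 and 0.30 for members and 0.39 and 0.17 over all genes. The lamina propria pools spanned over 2 log2 units in 9 members and the marrow pools in 3. In Mrpl48, of the central protuberance, pool 1 read 4.58 and pool 2 read 9.69, on either side of the marrow values of 6.46, 7.64 and 7.28. Pools 1 and 2 thus went opposite ways for Mrpl48 and Mrps18c, the same way for Mrpl42 and Mrpl50.

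By place in the ribosome, most groups of members had a negative median, and differences between the groups were not tested. Members with bacterial counterparts numbered 48, with a median difference of -0.34, and 9 were lower and 2 higher without overlap (18.8% and 4.17%). Those found only in mitochondria numbered 29, with a median of -0.36, and 3 were lower and 1 higher (10.3% and 3.45%, against 7.27% and 14.8% of all genes). In the small subunit's head, 7 of 8 members were negative, with a median of -0.69, among them Mrps35 and Mrps31 at -0.74 and -0.78 (limma adjusted p = 0.356 each). In its body and platform 12 of 17 were negative, with a median of -0.36, including Mrps12, Mrps15 and Mrps25.

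Large subunit regions were more mixed. Of 8 members around the exit tunnel 6 were negative, with a median of -0.37 and a range from -1.03 for Mrpl39 to 0.68 for Mrpl47. The 5 around the catalytic centre had a median of -0.11, with Mrpl2 at -0.47 and Mrpl3 at -0.28, and Mrpl3 was 0.44 above the marrow in pool 3. For the central protuberance 3 of 5 were negative, with a median of -0.27. The stalk that recruits translation factors had Mrpl12 at 0.42, Mrpl11 at 0.10 and Mrpl10 at -0.29. Mrpl1, of the stalk that guides spent transfer RNA out, read 5.09, 5.70 and 6.30 against 6.24, 6.5 and 6.54, a difference of -0.73.

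Probe sets disagreed in sign for 4 of the 8 members that had several, Mrpl27, Mrpl41, Mrpl47 and Mrps5. Mrpl27, beside the catalytic centre, gave 0.09 with the probe set used and -0.58 with the other, and Mrps5 gave -0.42 and 0.14. For Mrpl23 both probe sets read nearly the same values in every pool, at 0.07 and 0.02, and the gene table lists the same number of accessions for each, so they may not be separate measurements. Mrps33 and Mrps36 gave the same sign with both. Mrpl53 had only a probe set shared with Ccdc142, which entered no comparison and differed by 0.24.

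Many members lie back to back with another gene on the opposite strand. A start of such a gene within 500 bases upstream was found for 23 of 68 members (33.8%), against 12.9% of all tested genes with a window. Only neighbours that had a promoter window themselves were searched. Counting each pair once, 20 had both genes on the array, and in 7 of them (35.0%) the genes differed between the tissues in the same direction, against 63.8% of all 668 such pairs. Members were mostly negative and genes over the whole array mostly positive, so the shares start from different bases.

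The clearest opposite pair was Mrps12 and Sars2, the mitochondrial enzyme that charges transfer RNA with serine, whose starts are 147 bases apart. Sars2 read 6.41, 6.21 and 5.99 in the lamina propria and 5.82, 5.87 and 5.46 in the marrow, a difference of 0.49 (95% interval -0.03 to 1.01, limma adjusted p = 0.356), where Mrps12 differed by -1.31. Neither gene overlapped between the tissues, in opposite directions. Mrpl46 and Mrps11, a large and a small subunit gene with starts 42 bases apart, differed by -0.44 and 0.50. Mrpl30 and Mitd1, a gene of cell division, went the same way, with Mitd1 at 5.35, 5.14 and 5.64 against 7.54, 6.53 and 6.63, a difference of -1.52 (limma adjusted p = 0.255).

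**Figure D5:**
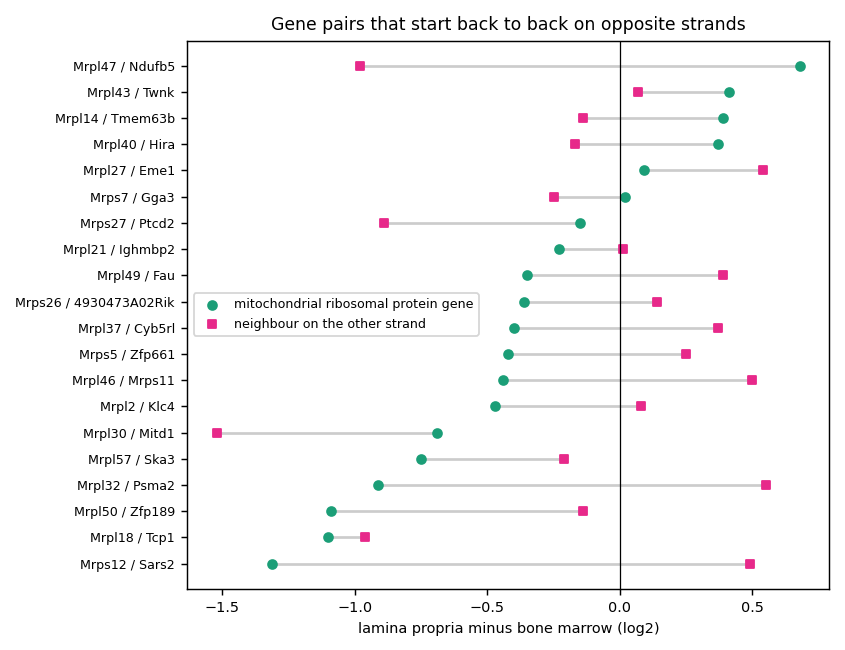
Differences between the tissues (lamina propria minus bone marrow, log2) for each member (green circle) and the gene that starts within 500 bases on the opposite strand (pink square), 20 pairs in all. In 7 pairs both points lie on the same side of 0, and Mrps12 and Sars2 lie at -1.31 and 0.49.

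Genes that make the mitochondrial ribosome or work with it were followed in 6 lists. None of their genes passed limma's test after adjustment over all genes. Of 7 ribosomal proteins with other symbols 4 were measured here under those names, 3 of them negative, with a median difference of -0.37. Ptcd3 and Dap3, both of the small subunit, differed by -1.31 and -0.75 (limma adjusted p = 0.356 each).

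Translation factors of the mitochondrion were the list with the lowest median, at -1.03. Of 15 genes 13 were negative, 5 lower and 1 higher with no overlap, against 7.27% and 14.8% of all genes. Mrrf, which splits the ribosome after termination, read 4.73, 4.41 and 5.23 against 7.26, 5.66 and 6.30, a difference of -1.62 (95% interval -2.61 to -0.62, limma adjusted p = 0.319). Mtrf1, a release factor, read 4.32, 5.11 and 5.24 against 6.11, 5.86 and 5.81, a difference of -1.03 (limma adjusted p = 0.341). All lamina propria pools lay below the marrow for both. The list's median was -1.21, -0.97 and -0.27 in pools 1, 2 and 3, so pool 3 was the least low.

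Assembly factors of the ribosome (21 measured) had a median of -0.16, with 15 negative, and 4 lower and 1 higher without overlap (19.0% and 4.76%, against 7.27% and 14.8% of all genes). Fastkd2, which binds the large ribosomal RNA, read 4.47, 4.71 and 5.60 against 6.21, 6.05 and 6.79, a difference of -1.43 (limma adjusted p = 0.3), and Malsu1, which joins the large subunit late in assembly, read 8.11, 5.78 and 8.98 against 9.57, 9.58 and 10.20. Its difference was -2.15, and -1.23 without lamina propria pool 2, which was the lowest. Transfer RNA synthetases of the mitochondrion (16 of 17 measured) had a median of -0.07, with 9 negative, and 2 lower and 2 higher without overlap (12.5% each, against 7.27% and 14.8% of all genes). Rars2, for arginine, read 4.44, 4.94 and 5.39 against 6.40, 7.04 and 7.37, a difference of -2.01 (95% interval -2.81 to -1.22). Its limma adjusted p was 0.197, and 0.0445 with an intensity trend and robust variances. Hars2, for histidine, differed by -1.37.

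Genes for mitochondrial DNA and its transcription (15 of 16 measured) had a median of -0.48, with 9 negative, and 1 lower and 1 higher without overlap (6.67% each, near or below the 7.27% and 14.8% of all genes). Pnpt1, an RNA-processing enzyme, differed by -1.72, and Tfam, which packs and transcribes the mitochondrial genome, by -1.44. Tfam read 4.55, 4.95 and 7.20 against 6.81, 6.92 and 7.29, so pools 1 and 2 were low and pool 3 was not.

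Regulators of mitochondrial biogenesis (16 measured) had a median of -0.34, with 9 negative, and 3 lower and 2 higher without overlap (18.8% and 12.5%, against 7.27% and 14.8% of all genes). Ppargc1a, a coactivator that promotes mitochondrial genes in other tissues, read 5.13, 5.63 and 6.48 against 7.01, 8.07 and 7.15, a difference of -1.66 (limma adjusted p = 0.307). With the Ppargc1a probe set of the lowest mean the difference was -0.73. Atf4, a factor of the stress response, was higher in every pool, at 7.61, 7.46 and 7.89 against 6.65, 7.06 and 5.97, a difference of 1.09 (limma adjusted p = 0.342). The factors whose motifs were searched in the promoters were looked at for that reason. Nrf1 differed by -0.66 and Yy1 by -0.72, both with overlap. Gabpa, which binds the ETS core, read 5.83, 7.32 and 8.96 against 9.07, 9.30 and 9.71, a difference of -1.99 (limma adjusted p = 0.356), without overlap and with pool 3 just below the marrow.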

How the data were processed

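Total RNA of 6 pools, 3 per tissue, was measured on whole-transcript arrays. The deposited values are on a log2 scale. Per the submitters' processing notes, the authors used RMA and Affymetrix Expression Console 1.3.0.187, with settings not given in the sources used here. Per the labels' protocols, 4.5 to 47 ng of RNA were amplified before labelling; the amount per sample is not given there. Values were used as deposited. Of 35556 probe sets, 21789 had 1 gene symbol in the platform's gene table, 1621 several, and 12146 were not listed; 21698 were found in RefSeq by Entrez identifier, and 0 symbols changed. A gene was read from its probe set with the highest mean, which gave 19938 genes.

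The tissues were compared with limma 3.58.1 in R 4.3.3 (lmFit and eBayes, two-sided, no block), with Benjamini-Hochberg adjustment over all genes, a threshold of 0.05 and 95% intervals. With 3 pools per tissue, the smallest two-sided p of an exact permutation test is 0.1. The replicates are independent per the series' design text, and p-values measure the spread between these pools. The fit was tested on simulated data. Medians over members are descriptions with no test. Promoters came from RefSeq (GRCm38.p6). Places in the ribosome and motif letters were set by hand from general knowledge. Figures used matplotlib 3.10.9.

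The members, lists, motifs and alternatives were chosen with earlier results of these data known. Named were the 4 lowest and 4 highest members of each subunit, 2 of each region and list by smallest p, members whose probe sets differ in sign, and Mrps18a, Mrps18b, Mrps18c, Mrps30 and Mrps36; any other gene was named after its values were seen.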

Additional observations from a re-analysis of the deposited data

How the results depend on the processing

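The number of genes called over the whole table was 0 in the fit as designed and 5586 with array weights. Those weights were least for lamina propria pool 3, at 0.15, against 0.70 to 2.80 for the other arrays. With them 16 members were called lower and 5 higher, against 11.1% and 16.9% of all genes. An intensity trend with robust variances called 40 genes, and the pool number as a replicate block 16, with 0 members in these 2 fits. Leaving out single arrays gave between 0 and 7222, the highest without lamina propria pool 3. The pool numbers were not shown to pair the samples: deviations from the tissue means correlated at 0.13, 0.05 and 0.23 for pools 1, 2 and 3, and pool 2 of the lamina propria correlated best with marrow pool 1. The block left the medians at -0.33 for Mrpl and -0.41 for Mrps genes.

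The Mrpl median was -0.50 with array weights, -0.19 after quantile normalization and -0.15 in pool 3 alone, and ran from -0.48 to -0.21 with 1 array left out. The Mrps median ran from -0.64 to -0.27 with 1 array left out, and the gap between the subunits from 0.02 to 0.16, with 0.22 after quantile normalization. These medians kept their sign under every alternative run; the gap was 0.00 in pool 3 alone. Centring and quantile normalization each brought the median of all genes from 0.22 to 0.12. Members lower without overlap numbered 27 (35.1%) without pool 3 and 27 (35.1%) in pool 3 alone. They numbered 14 (18.2%) after centring and 10 (13.0%) after quantile normalization. Shares of all genes, in the same order, were 18.7%, 26.7%, 8.36% and 8.14%. Members higher numbered 10, 13, 2 and 3 (13.0%, 16.9%, 2.6% and 3.9%), against 51.2%, 24.8%, 13.6% and 13.0% of all genes. These 4 counts in each direction were chosen after seeing the data.

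Signs of named genes changed as follows, and the cause was not tested. In pool 3 alone the differences were 0.14 for Mrpl42, -0.18 for Mrpl43, -0.03 for Mrpl12, 0.68 for Mrps14, -0.16 for Mrps34, 0.44 for Mrpl3, 0.39 for Mrps18a, 0.33 for Mrps5 and 0.19 for Tfam. With the probe set of the lowest mean they were 0.06 for Mrpl41, -0.74 for Mrpl47, -0.58 for Mrpl27 and 0.14 for Mrps5, and with the mean of probe sets -0.03 for Mrpl47 and -0.25 for Mrpl27. Array weights gave -0.10 for Mrps18b and -0.02 for Mrpl27, and centring -0.04 and -0.01. With 1 array left out, the differences ranged from -0.18 to 0.71 for Mrpl43, from -0.65 to 0.01 for Mrpl3, from -0.34 to 0.52 for Mrps18b, from -2.11 to 0.49 for Mrps18c and from -0.08 to 0.30 for Mrpl27. With 3 arrays per tissue, differences smaller than the spread between pools were not detectable. In the fit as designed, larger ones did not pass after adjustment either. Mrpl9, for instance, differed by 1.22 with SDs of 0.28 and 0.22 (limma adjusted p = 0.24).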
